A study of Mus musculus with 6 samples.

Results

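Costimulatory and checkpoint ligands are the surface proteins by which a macrophage raises or restrains the T cells it meets. The 9 genes described here are Cd80, Cd86, Cd40, Cd83, Icosl, Cd274, Pdcd1lg2, Havcr2 and Vsir. They were chosen by name, and each stood on 1 of the 53774 named lines of the deposited gene table. RNA was sequenced from CD45-positive, F4/80-positive cells sorted out of mouse skeletal muscle 3 days after barium chloride injury. All mice, controls included, had the genotype Cx3cr1-CreER, Manffl/fl, in which a Cre recombinase activated by tamoxifen is made under the Cx3cr1 promoter and can recombine the floxed Manf alleles. One group received tamoxifen, and the other received oil as the control. There were 3 libraries in each group, and since no label ties them to separate mice, p-values reflect only how these samples vary, and that variation may be technical. No label states age, sex or strain.

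A T cell needs a signal through its antigen receptor and a further signal through CD28, which binds the products of Cd80 and Cd86 on the presenting cell. CTLA-4 competes for the same pair, and PD-1, an inhibitory receptor of the T cell, is engaged by PD-L1 and PD-L2, the products of Cd274 and Pdcd1lg2. CD40 on the macrophage is engaged by CD40 ligand on T cells and then drives expression of other costimulatory proteins. ICOSL binds ICOS, CD83 stabilises MHC class II and CD86 at the surface, and VISTA (Vsir) and TIM-3 (Havcr2) act as inhibitory molecules of myeloid cells.

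None of the 9 genes was called between the groups, but they did not lie alike. Levels are FPKM, fragments scaled by gene length and by library depth. For testing a gene had to average 1 FPKM or more over the 6 libraries. Of the 8 genes that did, limma-trend on log2(FPKM + 1) called 0 higher and 0 lower at an adjusted p under 0.05. Over all 10920 genes tested it called 0 in either direction, a background of 0%. limma-voom, run on the reads recovered for 7 of the members, called 0 as well. At an unadjusted p under 0.05 there were 3 lower members, Cd83, Icosl and Vsir, and 0 higher, against 11.7% and 13.2% of all genes. All 3 libraries labelled tamoxifen lay below all 3 oil libraries for Cd83, Icosl, Havcr2 and Vsir, 4 of the 8 tested, where this held for 13.8% of all genes. They lay above for Cd80, 1 of the 8, against 16.2% of all genes. For Cd40, Cd86, Cd274 and the untested Pdcd1lg2 the groups overlapped. The same 5 genes stood apart under each of 3 other scalings of the libraries.

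Some facts of the libraries touch every value below. Depth, recovered from the values, ran from 18120333 to 25544666 reads. Manf, the gene to be deleted, did not separate the groups: oil held 29.5, 33.0 and 31.4 FPKM, and the libraries labelled tamoxifen 1, 2 and 3 (below also just tamoxifen 1, 2 and 3) held 18.1, 42.5 and 38.0 FPKM. An FPKM of the whole gene may count exons that are kept, so it does not show whether protein was lost, and the libraries are called by their labels. The library labelled tamoxifen 1 lay between oil and the other two on principal component 1, at -6.80 against 34.3 and 22.1, with oil between -22.5 and -13.5. Cx3cr1, whose promoter drives the recombinase, ran from 42.7 to 51.7 FPKM in oil, against 31.3, 9.82 and 24.6 FPKM in tamoxifen 1, 2 and 3. The sort genes Ptprc (CD45) and Adgre1 (F4/80) were present in every library. Ptprc ran from 47.4 to 54.5 FPKM in oil and from 34.4 to 46.9 FPKM with the tamoxifen label, without overlap. Adgre1 overlapped between the groups, at 304 to 384 FPKM.

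**Figure D1:**
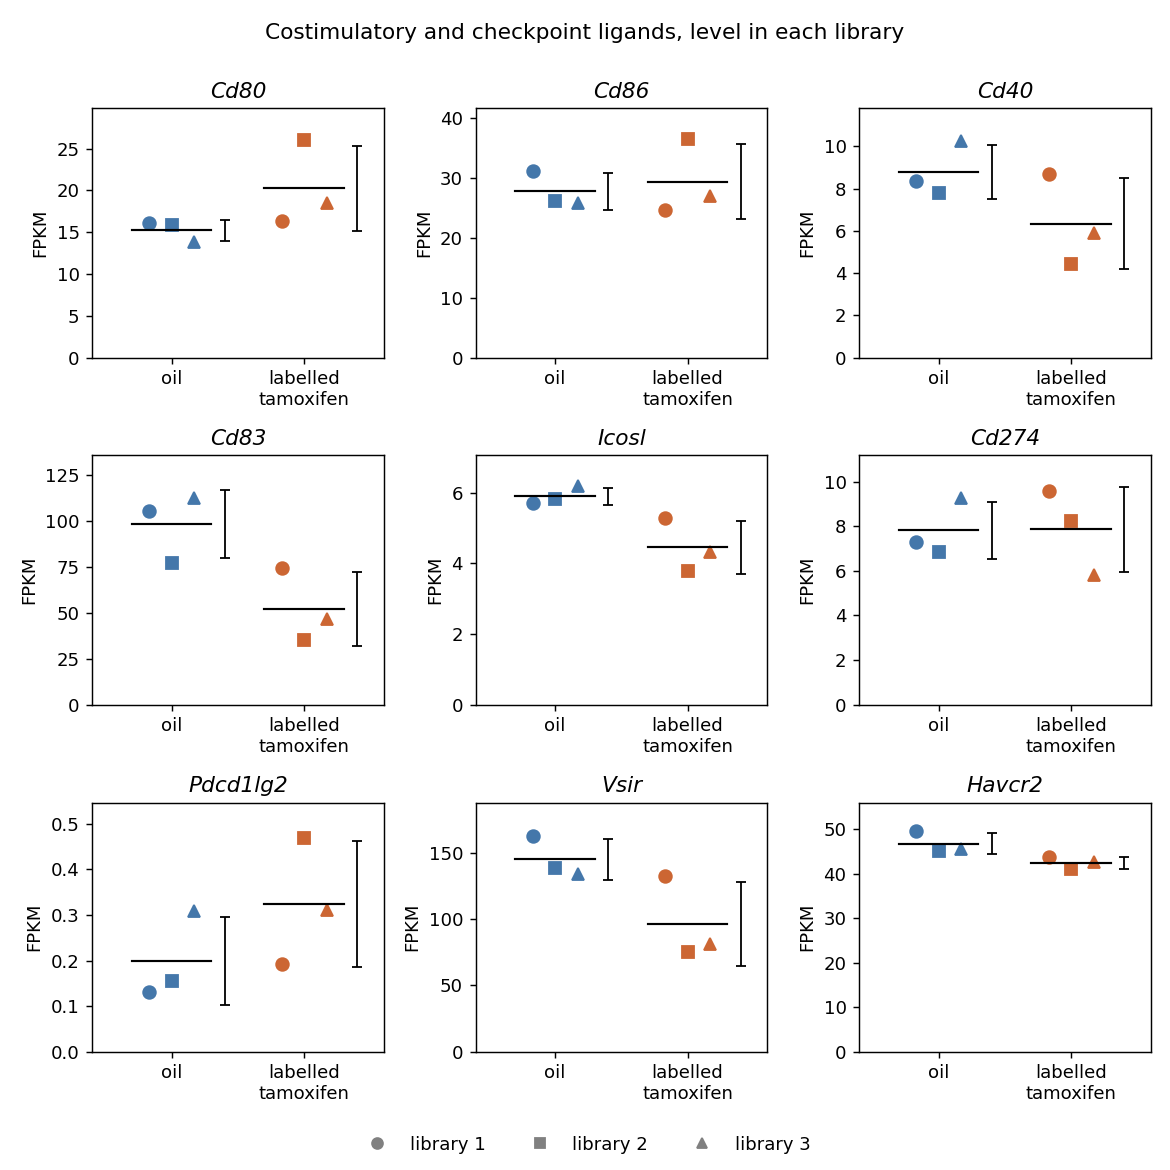
Level of each of the 9 genes in FPKM (linear axis from 0) in the 3 oil libraries and the 3 libraries labelled tamoxifen; marker shape gives the library number, the horizontal line the mean and the error bar 1 SD. Cd83, Icosl, Vsir and Havcr2 lie lower in all 3 libraries labelled tamoxifen and Cd80 lies higher, with tamoxifen 1 nearest to oil in each.

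Promoter sequences are shown for 4 of the 5 genes whose groups stood apart, to set their base composition side by side. RefSeq's table for GRCm38.p6 held 6 of the 9 genes (not Cd40, Cd83 or Cd86), each with 250 bases before and 50 bases from the transcription start. All are on the plus strand and are written 5′ to 3′, and capitals mark matches to the motifs searched on both strands. Vsir is chr10:60346601-60346900, Icosl chr10:78069118-78069417, Havcr2 chr11:46454681-46454980 and Cd80 chr16:38458683-38458982.
Vsir: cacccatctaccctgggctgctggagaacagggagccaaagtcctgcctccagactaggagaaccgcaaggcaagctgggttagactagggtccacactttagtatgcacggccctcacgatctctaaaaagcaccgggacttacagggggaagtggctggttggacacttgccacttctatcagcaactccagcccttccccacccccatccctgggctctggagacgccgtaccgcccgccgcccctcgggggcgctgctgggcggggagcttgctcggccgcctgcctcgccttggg
Icosl: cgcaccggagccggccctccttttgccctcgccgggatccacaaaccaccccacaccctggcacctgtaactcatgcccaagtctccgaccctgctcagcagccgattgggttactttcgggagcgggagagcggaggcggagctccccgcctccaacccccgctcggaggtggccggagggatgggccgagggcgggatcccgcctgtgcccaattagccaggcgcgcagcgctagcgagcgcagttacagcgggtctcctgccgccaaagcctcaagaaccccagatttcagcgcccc
Havcr2: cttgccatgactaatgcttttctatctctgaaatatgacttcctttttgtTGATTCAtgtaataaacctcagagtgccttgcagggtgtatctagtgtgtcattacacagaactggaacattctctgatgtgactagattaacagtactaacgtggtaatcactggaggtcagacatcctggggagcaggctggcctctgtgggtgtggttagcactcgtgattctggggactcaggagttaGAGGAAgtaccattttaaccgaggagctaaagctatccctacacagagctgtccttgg
Cd80: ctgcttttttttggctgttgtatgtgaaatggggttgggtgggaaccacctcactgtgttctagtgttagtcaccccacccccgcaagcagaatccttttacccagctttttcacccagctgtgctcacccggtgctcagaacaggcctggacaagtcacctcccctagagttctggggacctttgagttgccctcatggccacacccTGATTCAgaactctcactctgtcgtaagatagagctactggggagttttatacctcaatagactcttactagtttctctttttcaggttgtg
GC content was 63.7% for Vsir and 68.0% for Icosl, with 15 and 26 CpG dinucleotides, above the median of 52.7% and 7 over all 32851 promoters. Havcr2 and Cd80 were poorer, at 45.3% and 49.7%, with 3 CpG dinucleotides each. The AP-1 motif, searched as TGANTCA with any middle base, was found in 2 of the 6 promoters, Cd80 and Havcr2, and in 7.81% of all promoters. Both matches read TGATTCA, and a search with a stricter middle base was not run. In Cd80 the match began 42 bases and in Havcr2 200 bases before the start. The whole Cd80 window lies inside the gene as GENCODE M21 gives it, beginning at 38455561. RefSeq's start for Cd80 thus differs from that one, and the Cd80 motif position and base composition hold for RefSeq's start only. The PU.1 motif GAGGAA was found in Havcr2 and Pdcd1lg2, and in 28.3% of all promoters. The NF-kB motif GGGNNNTTCC, the ISRE motif GAAANNGAAA and the GAS motif TTCNNNGAA were in 0 of the 6, and in 5.56%, 3.44% and 8.30% of all promoters. These are matches of letters in a short window, not binding sites.

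The oil libraries set the genes in a clear order. Vsir was highest with a mean of 145 FPKM, followed by Cd83 at 98.2, Havcr2 at 46.8, Cd86 at 27.7 and Cd80 at 15.3 FPKM. Cd40 at 8.79, Cd274 at 7.81 and Icosl at 5.91 FPKM came next, and Pdcd1lg2 was last at 0.199 FPKM. Each neighbour in this order was separated from the next in all 3 oil libraries except Cd40 and Cd274, which overlapped. In the libraries labelled tamoxifen the order differed only in that Cd274 stood above Cd40, but more neighbours overlapped: Cd83 with Havcr2, Cd86 with Cd80, Cd274 with Cd40 and Cd40 with Icosl. Over all 6 libraries Vsir was more abundant than 96.3% of tested genes and Cd83 than 94.1%, while Icosl was above 40.4%. FPKM divides by gene length, and for Cd80 and Pdcd1lg2 the length the authors used was not that of GENCODE M21, so the place of these 2 genes in the order is less certain.

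Cd80 and Cd86, whose products are the ligands of CD28 and CTLA-4, differed in how far they stood from oil. Cd80 (ENSMUSG00000075122.5, chromosome 16, 38455561 to 38496335, plus strand, GRCm38) held 16.1, 15.8 and 13.8 FPKM in the oil libraries, against 16.3, 26.0 and 18.5 FPKM in tamoxifen 1, 2 and 3. Tamoxifen 1 cleared the highest oil library by a narrow margin, and tamoxifen 2 stood far above the rest. The means were 15.3 ± 1.26 and 20.3 ± 5.09 FPKM (SD, n = 3), a limma-trend log2 fold change of 0.36 (SE 0.17 and adjusted p = 0.221). Reads of Cd80 stood in the ratio of at least 509, 524 and 600 in oil and 612, 802 and 737 in the libraries labelled tamoxifen.

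Cd86 (ENSMUSG00000022901.13, chromosome 16, 36603869 to 36666081, minus strand) held 31.2, 26.2 and 25.8 FPKM in the oil libraries, against 24.6, 36.5 and 27.0 FPKM in tamoxifen 1, 2 and 3. The groups overlapped, with the lowest and the highest library both among those labelled tamoxifen. The limma-trend log2 fold change came to 0.065 (SE 0.16 and adjusted p = 0.805), and it was -0.097 without tamoxifen 2. It rested on 1865 to 2421 reads per library, so counting error was small beside the spread between libraries.

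The ratio of the pair within a library, in which the scale of the library cancels, separated the groups. Cd86 stood above Cd80 in all 6 libraries, by 1.94, 1.65 and 1.87 times in oil and by 1.50, 1.40 and 1.46 times in the libraries labelled tamoxifen. Every library labelled tamoxifen, number 1 included, lay below every oil library. Cd80 alone also stood apart while Cd86 overlapped, and how often ratios of other gene pairs separate the groups was not counted. The size of the plain ratio depends on the uncertain length of Cd80. On the log2(FPKM + 1) scale the ratio was 0.82 ± 0.11 in oil and 0.52 ± 0.045 with the tamoxifen label (SD, n = 3), a difference of -0.30 (exact two-sided permutation p = 0.1, the smallest that 3 against 3 allows). Leaving out any 1 library gave differences from -0.36 to -0.25.

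**Figure D2:**
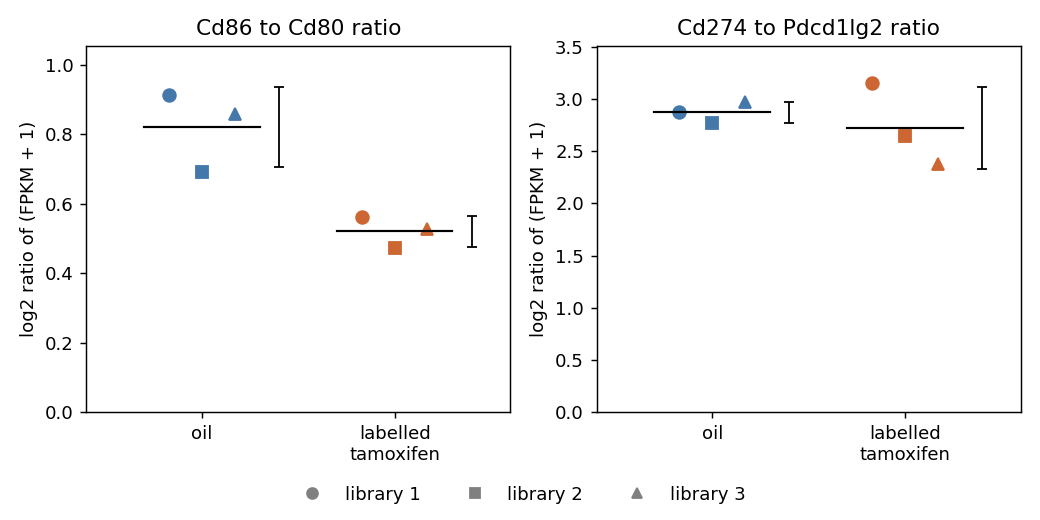
Log2 ratio of (FPKM + 1) of Cd86 to Cd80 (left) and of Cd274 to Pdcd1lg2 (right) in each library, with the mean as a line and 1 SD as the error bar; both axes start at 0. The Cd86 to Cd80 ratio runs from 0.69 to 0.91 in oil and from 0.47 to 0.56 in the libraries labelled tamoxifen, while the Cd274 to Pdcd1lg2 ratio overlaps.

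Cd83 had the largest fold change of the 8 tested genes. Cd83 (ENSMUSG00000015396.4, chromosome 13, 43784775 to 43803132, plus strand) held 105, 77.2 and 112 FPKM in the oil libraries, against 74.3, 35.1 and 46.5 FPKM in tamoxifen 1, 2 and 3. The groups did not overlap, though tamoxifen 1 lay just below oil 2. The means were 98.2 ± 18.5 and 51.9 ± 20.2 FPKM (SD, n = 3), a limma-trend log2 fold change of -0.96 (SE 0.28 and adjusted p = 0.152), which ranked 776th by p among the 10920 genes. Between 1634 and 7375 reads per library lay behind it.

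Cd40 (ENSMUSG00000017652.16, chromosome 2, 165055627 to 165072948, plus strand), the receptor through which T cells activate macrophages, held 8.37, 7.77 and 10.2 FPKM in the oil libraries, against 8.70, 4.42 and 5.90 FPKM in tamoxifen 1, 2 and 3. Tamoxifen 1 stood among the oil libraries, and the other two below all of them. The limma-trend log2 fold change came to -0.45 (SE 0.21 and adjusted p = 0.232).

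Icosl (ENSMUSG00000000732.9, chromosome 10, 78069302 to 78083913, plus strand), the ligand of ICOS, had a narrow range of 5.72, 5.83 and 6.18 FPKM in oil. Tamoxifen 1, 2 and 3 held 5.28, 3.80 and 4.31 FPKM, each below the lowest oil library. The limma-trend log2 fold change came to -0.35 (SE 0.11 and adjusted p = 0.156), on 318 to 729 reads per library.

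The ligands of PD-1 were unequal in level. Cd274 (ENSMUSG00000016496.7, chromosome 19, 29367455 to 29388095, plus strand), which encodes PD-L1, held 7.29, 6.87 and 9.27 FPKM in the oil libraries, against 9.58, 8.21 and 5.80 FPKM in tamoxifen 1, 2 and 3. The highest and the lowest of the 6 libraries both carried that label. The limma-trend log2 fold change came to -0.0056 (SE 0.18 and adjusted p = 0.987), and it was 0.17 without tamoxifen 3 and 0.11 without oil 3. An antisense gene, AC119228.1, overlaps it, and the counting is not stated to use strand.

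Pdcd1lg2 (ENSMUSG00000016498.10, chromosome 19, 29410919 to 29471161, plus strand) encodes PD-L2 and neighbours Cd274 on the same strand. It held 0.131, 0.156 and 0.309 FPKM in the oil libraries, against 0.193, 0.470 and 0.311 FPKM in tamoxifen 1, 2 and 3, under the minimum for testing. These values stood in the ratio of at least 4, 5 and 13 reads in oil and 7, 14 and 12 reads with the tamoxifen label. The libraries overlapped, and in the fit without a minimum the limma-trend log2 fold change came to 0.14 (SE 0.10 and adjusted p = 0.56). At so low a level a moderate difference was not detectable. Its antisense neighbour A930007I19Rik, which overlaps it, was at 0.608 to 0.868 FPKM. The ratio of Cd274 to Pdcd1lg2 on the log2(FPKM + 1) scale was 2.87 ± 0.10 in oil and 2.72 ± 0.39 with the tamoxifen label (SD, n = 3, exact two-sided permutation p = 0.6, smallest possible 0.1), and its direction turned without tamoxifen 3. This difference of -0.15 was -0.51 with a pseudocount of 0.1 and -0.035 with one of 5.

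The inhibitory molecules of myeloid cells included the most abundant of the 9 transcripts. Vsir (ENSMUSG00000020101.14, chromosome 10, 60346851 to 60372684, plus strand), which encodes VISTA, held 163, 139 and 134 FPKM in the oil libraries, against 132, 75.0 and 81.3 FPKM in tamoxifen 1, 2 and 3. Tamoxifen 1 lay barely under oil 3, and the other two far below. The means were 145 ± 15.5 and 96.2 ± 31.5 FPKM (SD, n = 3), a limma-trend log2 fold change of -0.63 (SE 0.22 and adjusted p = 0.161). Vsir lies within Cdh23, a gene on the other strand, but Cdh23 was at only 0.126 to 0.248 FPKM.

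Havcr2 (ENSMUSG00000020399.14, chromosome 11, 46454935 to 46481255, plus strand), which encodes TIM-3, held 49.6, 45.2 and 45.6 FPKM in the oil libraries, against 43.8, 41.1 and 42.6 FPKM in tamoxifen 1, 2 and 3. The groups did not overlap, but the difference was small: 46.8 ± 2.43 against 42.5 ± 1.36 FPKM (SD, n = 3), a limma-trend log2 fold change of -0.14 (SE 0.07 and adjusted p = 0.266).

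**Figure D3:**
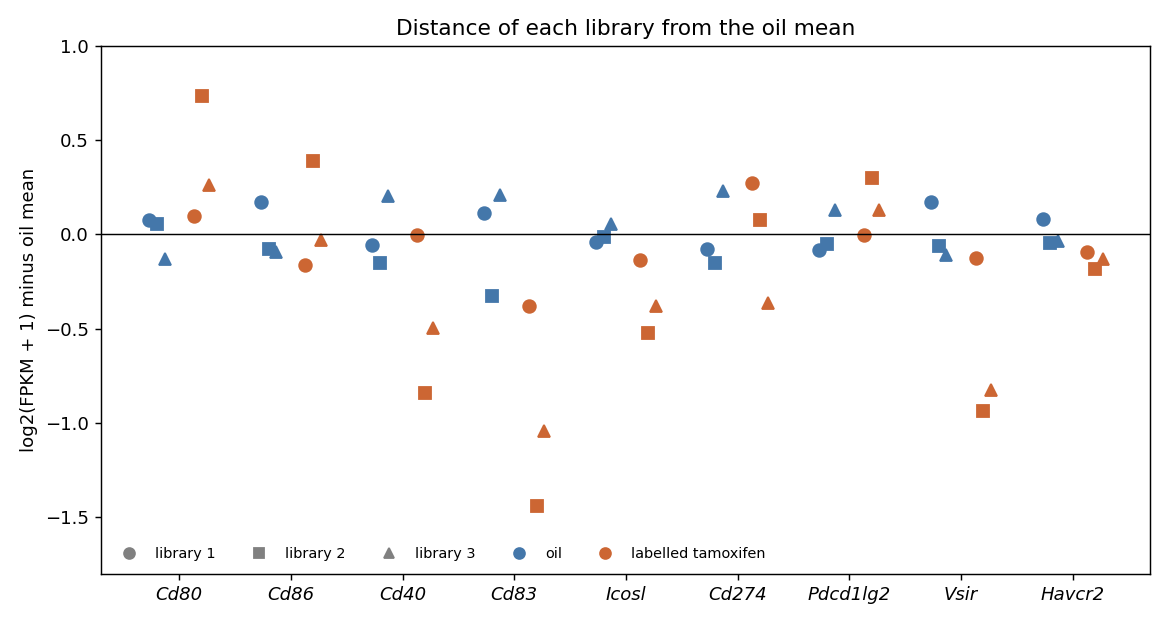
Distance of each library from the oil mean on the log2(FPKM + 1) scale for the 9 genes; blue points are oil, orange points are labelled tamoxifen, and marker shape gives the library number. For Cd40, Cd83, Icosl and Vsir tamoxifen 2 and 3 lie below every oil library, tamoxifen 2 lowest at -1.44 for Cd83, while tamoxifen 1 lies between -0.38 and -0.0047.

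The spread among the libraries labelled tamoxifen had one shape in 7 of the 9 genes. From the oil mean of log2(FPKM + 1), Cd83 lay at -0.38, -1.44 and -1.05 in tamoxifen 1, 2 and 3. Vsir lay at -0.13, -0.94 and -0.82, and Cd40 at -0.0047, -0.84 and -0.50. Cd80 ran the other way, at 0.10, 0.74 and 0.26. In these genes and in Icosl, Havcr2 and Pdcd1lg2, tamoxifen 2 stood farthest from oil and tamoxifen 1 nearest. Cd86 and Cd274 did not follow this order, Cd274 lying at 0.27, 0.074 and -0.36. On principal component 1 of the tested genes, with 67.65% of the variance, tamoxifen 2 also lay farthest from oil and tamoxifen 1 nearest. The share of all genes with this order was not counted, so it cannot be called particular to the members.

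Without the library labelled tamoxifen 1, which was singled out after its values were seen, limma-trend called 4 of the 8 members lower and 1 higher. Of all genes it then called 14.5% lower and 17.4% higher. Cd83 fell by 1.24 on the log2 scale (adjusted p = 0.00676), Vsir by 0.88 (adjusted p = 0.00327), Cd40 by 0.67 (adjusted p = 0.0185) and Icosl by 0.45 (adjusted p = 0.0101). Cd80 rose by 0.50 (limma-trend adjusted p = 0.0471). Havcr2, Cd86 and Cd274 stood at -0.16, 0.18 and -0.15 on that scale and were not called (limma-trend adjusted p = 0.121, 0.378 and 0.539). Leaving out any other single library gave 0 calls among the members and 0 over all genes. Weighting the libraries by their quality, also chosen after seeing the data, called Cd83, Vsir, Cd40 and Icosl lower and 0 members higher, against 18.7% and 24.8% of all genes.

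**Figure D4:**
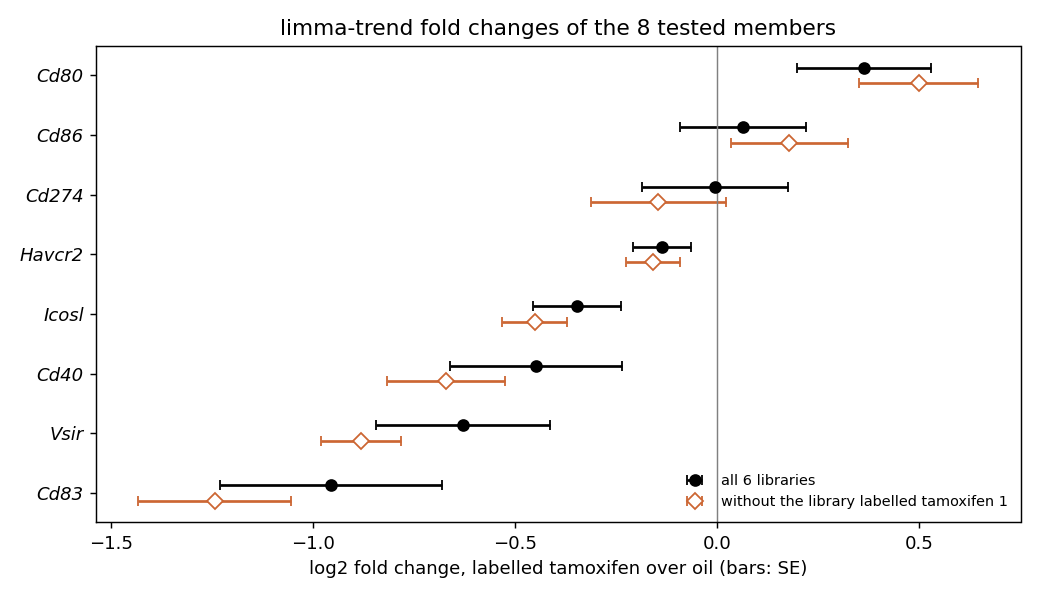
Log2 fold change of the 8 tested genes, labelled tamoxifen over oil, from limma-trend with all 6 libraries (filled circles) and without the library labelled tamoxifen 1 (open diamonds); bars are 1 SE. Cd83 is lowest at -0.96 and -1.24, Cd80 highest at 0.36 and 0.50, and Cd274 and Cd86 lie near 0.

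Other genes of these pathways were read from 7 lists holding 81 genes, of which 53 were tested, and 0 were called in either direction. Without tamoxifen 1 there were 8 higher and 9 lower of the 53, where 17.4% and 14.5% of all genes were called. Among the remaining B7 and butyrophilin ligands 2 of 8 were tested, and both had a fold change below 0. Cd276, which encodes B7-H3, held 16.8, 14.3 and 14.2 FPKM in the oil libraries, against 11.7, 6.26 and 12.2 FPKM in tamoxifen 1, 2 and 3 (log2 fold change -0.59, limma-trend adjusted p = 0.182), with no overlap. Btnl2, a butyrophilin-like gene, had -0.26. Of the 7 costimulatory ligands of the TNF superfamily 2 were tested, both above 0: Tnfsf9 (4-1BB ligand) at 25.0 ± 6.72 and 28.5 ± 7.95 FPKM and Tnfsf14 (LIGHT) at 10.1 ± 1.84 and 16.5 ± 8.61 FPKM (SD, n = 3), with overlapping libraries.

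The list of further inhibitory or adhesive ligands and myeloid receptors had 16 tested genes. All 3 libraries labelled tamoxifen lay above oil for 6 of them and below for 1, where this held for 16.2% and 13.8% of all genes. The median log2 fold change was 0.15, against 0.021 over all genes tested. Cd24a, which encodes a glycosylated surface protein bound by Siglecs and has near-identical copies in the genome that make its level uncertain, held 15.0, 15.6 and 14.4 FPKM in the oil libraries, against 28.6, 51.6 and 33.0 FPKM in tamoxifen 1, 2 and 3. Its groups lay far apart, with tamoxifen 1 also well above any oil library (log2 fold change 1.23, SE 0.20, limma-trend adjusted p = 0.147). Ceacam1, a proposed TIM-3 ligand, was at 4.24 ± 0.322 and 6.63 ± 1.34 FPKM (SD, n = 3). Tnfrsf14, the receptor of LIGHT and a ligand of BTLA, was the gene below oil, at 5.79 ± 0.488 and 4.06 ± 0.921 FPKM.

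Receptors that lymphocytes carry for these ligands were nearly absent, with 9 of 10 under 1 FPKM. Lag3, an inhibitory receptor of T cells and other leukocytes, was the exception. It held 10.7, 8.99 and 10.9 FPKM in the oil libraries, against 9.15, 3.04 and 4.28 FPKM in tamoxifen 1, 2 and 3. Tamoxifen 1 fell within the oil range and the other two well below it (log2 fold change -0.90, limma-trend adjusted p = 0.164).

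Adaptors downstream of CD40 gave 9 tested genes with a median log2 fold change of 0.047. Birc2 (cIAP1, a ubiquitin ligase) was at 5.24 ± 0.511 and 3.72 ± 0.167 FPKM, Map3k14 (NIK, the kinase of non-canonical NF-kB) at 4.87 ± 0.704 and 3.72 ± 0.626 FPKM, and Chuk (IKK-alpha) at 11.7 ± 0.474 and 14.0 ± 1.32 FPKM (SD, n = 3). These 3 genes are named as those of smallest p in the list. They were the only ones of the 9 whose groups did not overlap, 2 lower and Chuk higher with the tamoxifen label. Over all genes 13.8% lay below and 16.2% above.

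The list of transcription factors known to act on these genes held 18 genes. It included Socs1 and Socs3, which are inhibitors of cytokine signalling and not transcription factors. The list was split, 9 above and 9 below 0, with a median log2 fold change of 0.0024. Socs1 at 0.34 and Socs3 at 0.27 were both among those above 0. The NF-kB subunits lay close to oil, with Nfkb1 at 0.010, Relb at -0.020 and Rel at -0.086, named after their values were seen. Irf8, a factor of monocytes and dendritic cells, held 24.8, 24.0 and 22.7 FPKM in the oil libraries, against 24.8, 12.8 and 12.5 FPKM in tamoxifen 1, 2 and 3, so that only tamoxifen 2 and 3 stood below oil. Fos had a log2 fold change of -0.35 and Hif1a, the hypoxia factor, one of 0.33, neither of which passed (limma-trend adjusted p = 0.2 and 0.161). Of 5 partners of the PD-L1 protein, Cmtm6, which protects PD-L1 from degradation, was at 46.3 ± 0.994 and 41.6 ± 0.937 FPKM, and its relative Cmtm4 at 2.12 ± 0.132 and 1.44 ± 0.280 FPKM (SD, n = 3). Both lay below oil in all 3 libraries, while Spop, a ubiquitin ligase adaptor, lay above oil, at 53.1 ± 1.90 and 57.6 ± 1.99 FPKM. These 3 are named as those of smallest p among the 5, and over all genes 13.8% lay below and 16.2% above.

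**Figure D5:**
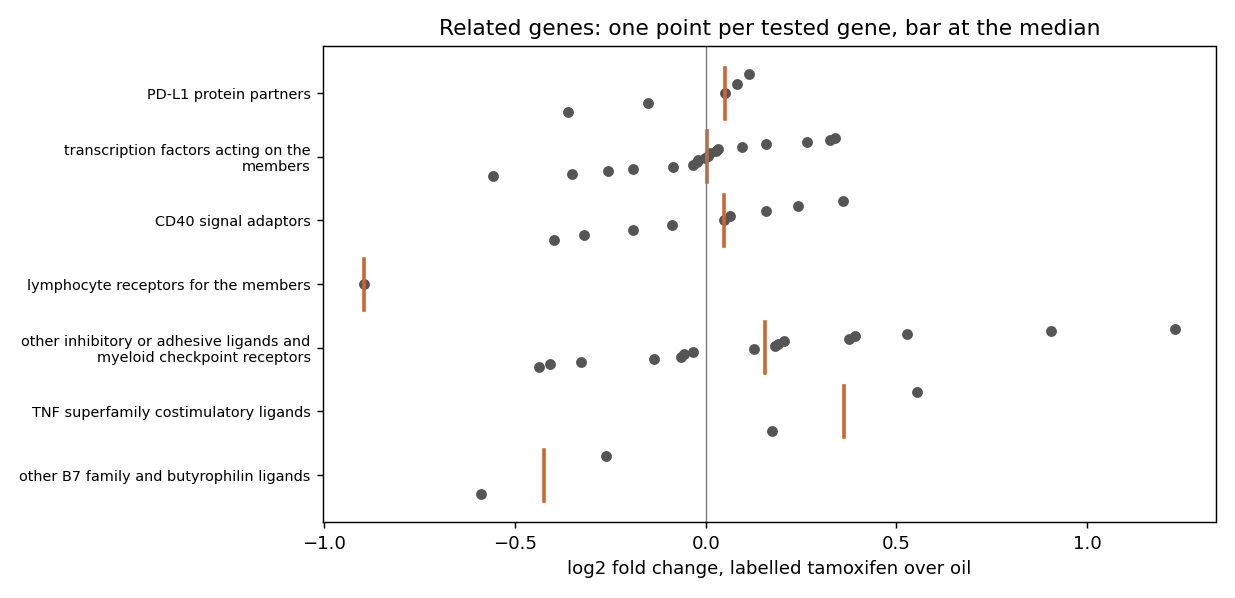
Log2 fold change, labelled tamoxifen over oil, of the 53 tested genes in the 7 related lists, 1 point per gene, with a bar at each list's median. Most genes lie within 0.5 of 0; Cd24a at 1.23 and Pilra at 0.90 (the latter named after its values were seen) lie farthest to the right and Lag3 at -0.90 farthest to the left.

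Markers of macrophages and of some other cell types differed between the groups. The macrophage list was high throughout, and most of its sum was Lyz2. It summed to 11186 to 12916 FPKM in oil and to 9006 to 10073 FPKM with the tamoxifen label. Of its 9 tested markers 7 had a fold change below 0 and 2 above, with a median of -0.38 on the log2 scale. All 3 libraries labelled tamoxifen lay below oil for 4 and above for 1, against 13.8% and 16.2% of all genes. Without tamoxifen 1, limma-trend called 6 lower and 0 higher, against 14.5% and 17.4% of all genes. Dendritic cells, which carry Cd83, Cd86 and Cd40, had 5 of 12 markers at or above 1 FPKM. Their sum was 11.6 to 17.9 FPKM in oil and 7.12 to 8.50 FPKM with the tamoxifen label, with Cd209a and Batf3 highest on average and Zbtb46 at 0.0480 to 0.248 FPKM. B cell markers summed to 29.6 to 36.0 and 9.24 to 24.0 FPKM, with Ighm the highest of the list in all 6 libraries. Neutrophil markers summed to 43.4 to 47.8 FPKM in oil and to 50.2, 358 and 105 FPKM in tamoxifen 1, 2 and 3. In tamoxifen 2 S100a8 was at 154 and S100a9 at 120 FPKM. The list did not move as one: of 7 tested markers 5 had a fold change above 0 and 2 below. Csf3r held 27.3, 28.7 and 28.2 FPKM in oil, against 30.3, 15.2 and 14.6 FPKM in tamoxifen 1, 2 and 3. Ly6g was at most 0.176 FPKM in a library (both named after their values were seen). T and NK cell markers summed to 2.09 to 2.40 FPKM in oil. In tamoxifen 1, 2 and 3 they summed to 1.98, 3.11 and 2.82 FPKM. Most of each sum was Cd2, the 1 tested gene of the 10. Muscle and stromal markers lay between 17.2 and 31.5 FPKM in sum. The part of these cells in the values above was not tested. In sorted bulk RNA, fewer cells that carry a transcript and less of it per cell cannot be told apart.

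Genes most like each member were found by Pearson correlation of log2(FPKM + 1) over the 6 libraries among tested protein-coding genes, as a description in which all points share the group difference. For Vsir they were Galc, a lysosomal galactosidase, and Gpr65, a proton-sensing receptor (r = 0.999 and 0.998). Cd83 was most like Tmem141 and Scamp2 (0.997 and 0.996), and Cd40 was most like Ifit2, an interferon-induced gene, and Paip2b (0.999 and 0.995). Icosl was nearest to Cyhr1 and Tmem140 (0.999 and 0.998), and Cd80 to Camk2g and Ecm1 (0.996 and 0.994). Havcr2 had Aco1 and Mfsd3 (0.996 and 0.995). Cd274 had Isca2 and Ifi207 (0.988 and 0.981), and Cd86 had Selenok and Spg7 (0.975 and 0.973).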

How the data were processed

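The authors deposited 1 table of FPKM per gene and library; the unit comes from its name and values. Per the submitters' processing notes, reads were placed on GRCm38.p6. Aligner, counter, annotation and strand setting: not given in the sources used here. Of 54183 lines, 382 without a name and 27 with a date as name were left out. Names found on several lines (124) entered no gene list.

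FPKM multiplied by GENCODE M21 exon length gave whole multiples of 1 step for 95.0% to 95.3% of values up to 1000 reads (within 0.02 reads), hence depth and reads per gene. For Cd80 and Pdcd1lg2, not whole at that length, the smallest whole numbers in the ratio of their values are given.

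limma-trend (limma 3.58.1, R 4.3.3) was run on log2(FPKM + 1), without rescaling or covariates, for the 10920 genes that averaged 1 FPKM or more. Two-sided p-values were adjusted over all of them by Benjamini-Hochberg, with a threshold of 0.05. The log2 scale with a pseudocount understates the change of low genes. The fit was also run on simulated data in which each gene varied on its own, without a shift shared by a whole library. That simulation cannot tell how the fit behaves where 1 library lies apart from its group. Members and lists were chosen with earlier results of these data known. Named are all members, Manf, the sort and driver genes, the 3 genes of smallest p in each related list, the 2 highest of each marker list and the 2 genes most like each member; others are marked or shown for overlap. Library weights and limma-voom were added after seeing the data.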

Additional observations from a re-analysis of the deposited data

How the results depend on the processing

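Under other pseudocounts, no minimum or a minimum of 5 FPKM, 3 other scalings, no trend, a robust prior, the replicate block and limma-voom on recovered reads, 0 of the tested members were called and no member's fold change turned in sign. Over all genes there were 1 higher and 4 lower at a minimum of 5 FPKM, 0 and 1 with no minimum, and 11 and 22 with the replicate block. Library quality weights gave 2704 higher and 2037 lower over all genes, 0 and 4 among members, and 10 and 10 among related genes. Leaving out 1 library gave 0 to 1901 higher and 0 to 1583 lower over all genes, 0 to 1 and 0 to 4 among members, and 0 to 8 and 0 to 9 among related genes, where every count above 0 came from leaving out tamoxifen 1; the cause was not tested. Signs turned for Cd86 without tamoxifen 2 (-0.097, in a range up to 0.18 over the libraries left out), for Cd274 without oil 3 (0.11) and without tamoxifen 3 (0.17, in a range from -0.15), and for the Cd274 to Pdcd1lg2 ratio, which ran from -0.36 to 0.027 (without tamoxifen 3) over the libraries left out, and stood at -0.51 and -0.035 with pseudocounts of 0.1 and 5. With the replicate block the Cd86 to Cd80 difference was -0.30 (exact paired p = 0.25, the smallest possible). No label says that the numbers pair the samples. Same-numbered libraries had deviations from their group means correlated at 0.261, 0.0884 and 0.00397, which with 3 libraries per group cannot settle it. Pdcd1lg2 was limited by its level, at most 0.470 FPKM in a library.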
